A study of Rattus norvegicus with 9 samples.

Results

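Out of 41078 rat transcripts in the count table, 25127 of which had a count in at least 1 library, 75 stood higher in PC12 cells given erastin than in untreated cells and higher again when PQR NPs were given with erastin. PC12 is a rat cell line from a pheochromocytoma, a tumour of the adrenal medulla, and is used as a neuron-like model. The 3 groups of 3 libraries were untreated wild-type cells, cells treated with erastin alone, which serve the series as its PD model, and cells treated with both erastin and PQR NPs. The last are described as a nanodelivery system, without their composition. Every library came from the 1 cell line, with no dose, no time and no group given PQR NPs alone in the labels, so what the particles do without erastin cannot be told apart from what they do with it. Library totals ran from 34772755 to 40826754 counts.

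The 75 were selected on the measured values themselves. Counts were divided by the library total and multiplied by 1000000 (CPM), and group means were compared as log2 of CPM + 0.5. A transcript was kept if its mean rose by at least 0.35 on that scale from control to erastin (the first step) and by at least 0.35 from erastin to co-treatment (the second step). Further conditions were a co-treated mean of at least 3 CPM, a mean over the 9 libraries under 1000 CPM, and no overlap between neighbouring groups. The order of the groups, their separation and both steps were therefore fixed by the choice, and the values below describe the set without testing it.

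Erastin blocks the cystine/glutamate antiporter at the cell surface. Less cystine then reaches the cell, glutathione runs short, and lipid peroxides build up in membranes until the cell dies by ferroptosis, an iron-dependent form of death. Cells answer such stress with transcriptional programmes, among them those of the factors NRF2 and ATF4, and an agent given on top can weaken, leave or add to each of these. Transcripts are known here by Ensembl transcript ID alone, and no reference used here pairs these IDs with genes. Of all 41078 IDs, the 75 included, 0 were found in the RefSeq gene table of the GRCr8 assembly, and 0 of the 75 in its promoter table. The missing pairing tells nothing about the transcripts themselves, but no gene name, role, position or sequence can be given. Without it the label of PC12 cells could not be checked against chromaffin cell markers. Each of the 75 is called below by its rank in co-treated CPM, from 1 (highest) to 75. CPM is not divided by transcript length, so the rank is a label and no order of abundance between transcripts. A count belongs to 1 transcript, and the sources used here do not say how reads were shared among isoforms of a gene.

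Together the 75 took 0.249%, 0.244% and 0.251% of the counts in the control libraries. With erastin they took 0.508%, 0.497% and 0.498%, and under co-treatment 0.922%, 0.925% and 0.899%. The group means were 0.248% ± 0.00383, 0.501% ± 0.00577 and 0.915% ± 0.0145 (SD, n = 3 each). The share roughly doubled at the first step and grew by a similar factor at the second. No library of 1 group reached the range of the next, which the choice of each transcript had already fixed. On TMM-adjusted library sizes the 3 means were 0.251%, 0.510% and 0.888%.

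**Figure D1:**
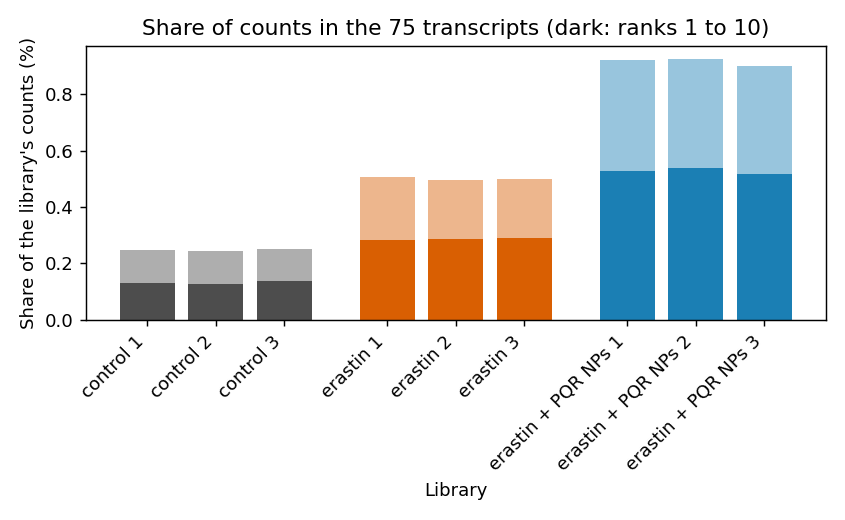
Share of each library's counts (%, linear axis from 0) taken by the 75 transcripts, 1 bar per library, with ranks 1 to 10 in the dark part and ranks 11 to 75 in the pale part. The control bars lie between 0.244% and 0.251%, the erastin bars between 0.497% and 0.508%, and the co-treated bars between 0.899% and 0.925%.

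A few transcripts of high CPM carried much of this gain. The summed mean grew by 6674 CPM from control to co-treatment, 2531 at the first step and 4143 at the second. Of this gain, 59.4% lay in ranks 1 to 10. These ranks are set by co-treated CPM, and they already held 1309 of the 2480 CPM in control. Only 8 transcripts were needed to hold 50% of the gain, counted from the largest gain down. The remaining ranks also rose at both steps, which the rule required of each. Ranks 11 to 75 summed to 1171 ± 20.8 CPM, 2135 ± 91.1 CPM and 3878 ± 61.4 CPM (SD, n = 3) in the order control, erastin, co-treatment. In CPM, the second step was the larger one for 61 of the 75.

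On the log2 scale the steps were more alike. The first step ran from 0.35 to 4.02 with a median of 0.71, and the second from 0.36 to 2.13 with a median of 0.64. Over all 17123 transcripts that passed the filter on low counts, which include all 75, the medians were 0.01 and 0.04. From control to co-treatment the difference ran from 0.81 to 5.08 with a median of 1.40 (interquartile range 1.08 to 2.22), against 0.02 over all tested. In plain folds of mean CPM, 24 of the 75 were at least 2-fold higher with erastin than in control, 19 were at least 2-fold higher under co-treatment than with erastin, and 63 were at least 2-fold higher under co-treatment than in control. The last difference reached 4-fold in 26, 8-fold in 8 and 16-fold in 5. Most of the set therefore moved by modest amounts: 42 of the 75 were under 2-fold at both steps.

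**Figure D2:**
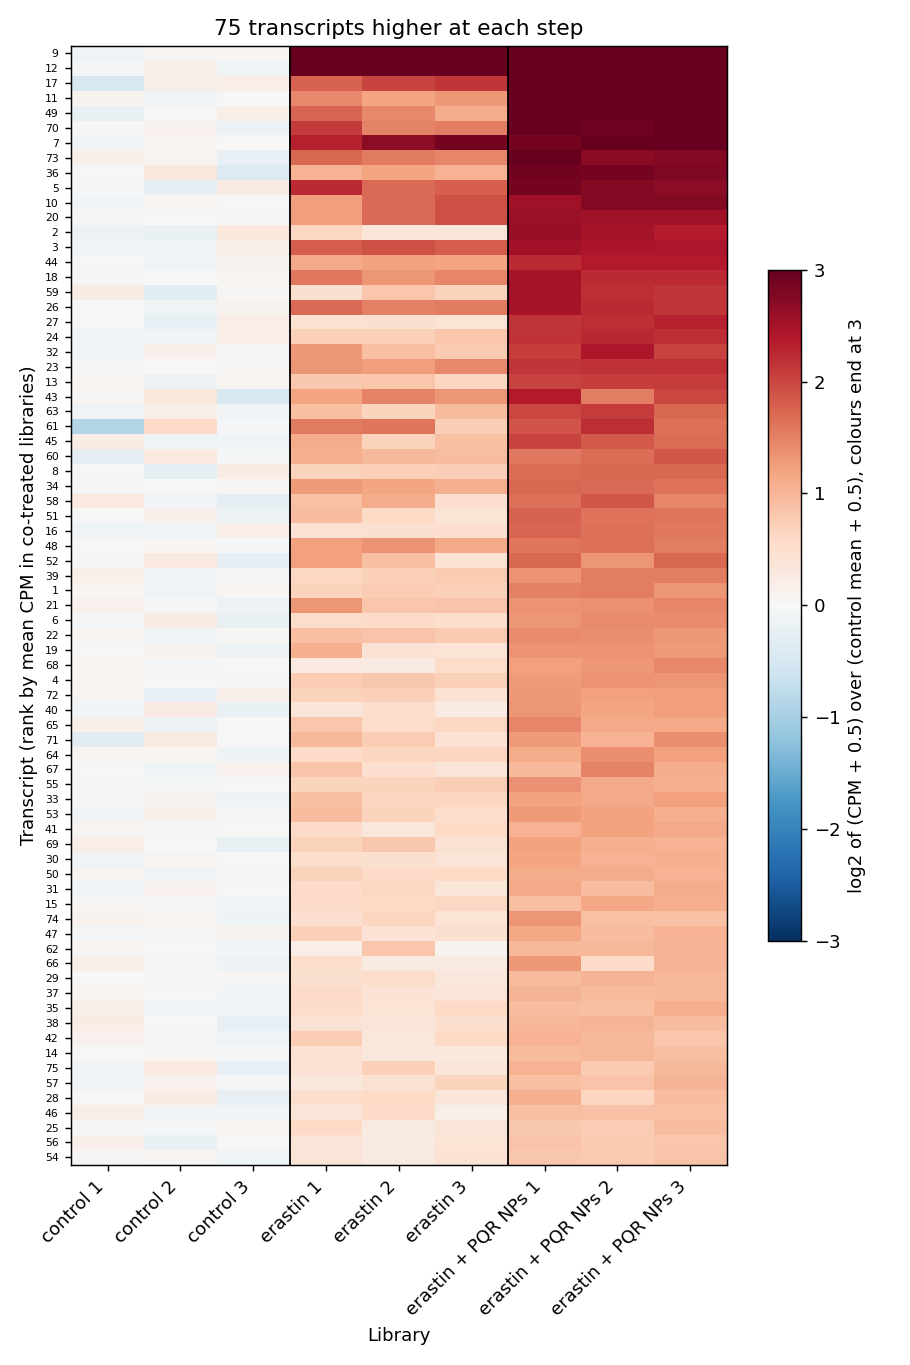
Level of each of the 75 transcripts (rows, numbered by rank and ordered by their difference between co-treatment and control) in each of the 9 libraries (columns), as log2 of CPM + 0.5 over the control mean + 0.5, with colours ending at 3. Mean levels rise from control to erastin to co-treatment in each row, by 5.08 in the top row and by 0.81 in the bottom row. Ranks 9 and 12 have the end colour from erastin on, so their second step cannot be seen in the colours.

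The steepest rises from controls of at least 10 counts each were those of ranks 9 and 12, which differed in how the rise was divided. Rank 9, ENSRNOT00000009840, stood at 10.7, 12.1 and 12.2 CPM in the control libraries, 148, 115 and 122 CPM with erastin, and 396, 423 and 409 CPM under co-treatment. That is an 11.03-fold step followed by a 3.19-fold step, 35.1-fold in all, from 11.6 ± 0.811 to 128 ± 17.5 and then 409 ± 13.3 CPM (SD, n = 3). Its lowest erastin library was 9.46 times its highest control library, and its lowest co-treated library 2.67 times its highest erastin library. Rank 12, ENSRNOT00000083472, stood at 9.81, 11.5 and 9.24 CPM in controls, 180, 161 and 176 CPM with erastin, and 307, 285 and 284 CPM under co-treatment. Most of its rise came with erastin, 16.95-fold, and the second step was 1.69-fold. Its control and erastin libraries lay 14.02-fold apart at their nearest, the widest separation at the first step among the 75.

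Another 6 transcripts were at least 8-fold higher under co-treatment than in control. Rank 17 climbed by nearly equal factors, 4.13-fold and then 4.21-fold, with 6.08, 9.81 and 10.02 CPM in controls, 30.4, 36.6 and 39.9 CPM with erastin and 151, 145 and 154 CPM under co-treatment. For rank 11 the second step was the larger, 4.40-fold after 2.51-fold. Its libraries held 30.0, 25.9 and 28.0 CPM in controls, 76.4, 64.5 and 69.3 CPM with erastin and 318, 308 and 298 CPM under co-treatment. The gap between its highest erastin and its lowest co-treated library, 3.90-fold, was the widest at the second step among the 75. At rank 49 the control libraries held 2.08, 2.504 and 2.88 CPM, the erastin libraries 9.52, 7.63 and 5.92 CPM and the co-treated libraries 29.6, 24.5 and 24.4 CPM. The 3 erastin libraries of rank 49 spread by 23.4% of their mean.

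Rank 7 had the highest share of its log2 difference at the first step, 87.3%. It held 50.0, 55.6 and 52.3 CPM in controls, 264, 341 and 388 CPM with erastin and 390, 440 and 464 CPM under co-treatment. The erastin libraries were 6.29-fold above control in the mean, while the second step was 1.30-fold and the lowest co-treated library exceeded the highest erastin library by a ratio of 1.01 only. The second step of rank 7 was not called in edgeR's test, and on TMM-adjusted library sizes rank 7 no longer met the rule.

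The last 2 of the 8 started near the limit of detection. Rank 70 had 10, 12 and 6 counts in controls, 100, 56 and 58 with erastin and 239, 208 and 238 under co-treatment, that is 0.243 ± 0.0774, 1.99 ± 0.611 and 5.75 ± 0.566 CPM (SD, n = 3). Rank 73 had 6, 5 and 0 counts in controls, 55, 44 and 40 with erastin and 191, 138 and 139 under co-treatment, or 0.0959 ± 0.0846, 1.30 ± 0.168 and 3.93 ± 0.812 CPM. If the values are counted reads, which the sources used here do not state, the 0 allows up to 3 counts, 0.0785 CPM in that library, for counting error alone. These were the only transcripts of the 75 with under 10 counts in a control library and with a control mean under 1 CPM. Their ratios of mean CPM between co-treatment and control, 23.6 and 40.97, rest on those few control counts. On the log2 scale with 0.5 CPM added the differences were 3.07 and 2.89. In the erastin and co-treated libraries no transcript of the 75 had fewer than 40 counts.

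**Figure D3:**
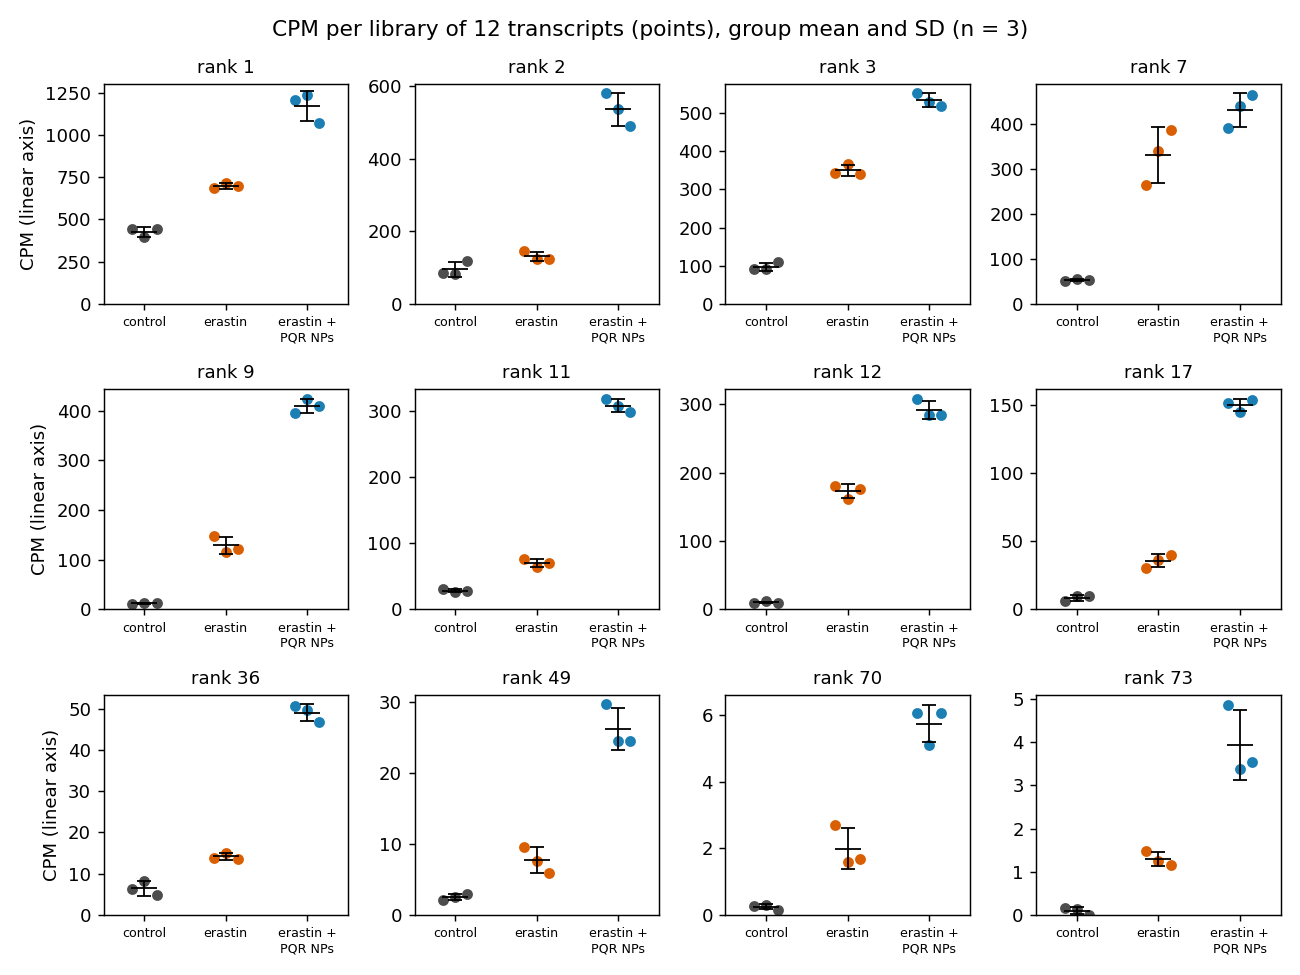
CPM (linear axes from 0, scaled per panel) of 12 of the 75 transcripts in the 3 control, 3 erastin and 3 co-treated libraries, with points for libraries and bars for the group mean and SD (n = 3). Rank 2 stays low until co-treatment (95.3, 131 and 537 CPM), rank 12 has most of its rise with erastin (10.2, 172 and 292 CPM), and the erastin and co-treated points of rank 7 nearly touch.

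The balance between both steps varied. The first step made up between 18.2% and 87.3% of the whole log2 difference, with a median of 50.4% (interquartile range 43.7% to 60.1%). It was the larger step for 39 transcripts and the smaller for 36. A ratio of 2 between the steps on the log2 scale, a limit set after the values were seen, divided the set into 59 with steps within that ratio, 10 with the larger step at erastin and 6 with the larger step at co-treatment.

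Of the 6 that rose mainly when PQR NPs were added, rank 2 had the largest difference between its steps. It held 83.8, 83.3 and 119 CPM in controls, 146, 123 and 123 CPM with erastin and 582, 536 and 492 CPM under co-treatment. The first step was 1.37-fold, and the highest control library lay just below the lowest erastin library (119 against 123 CPM). The second step was 4.11-fold. Rank 27 went from 15.5, 13.0 and 17.9 CPM in controls to 21.3, 21.9 and 20.9 CPM with erastin and 70.4, 73.4 and 78.2 CPM under co-treatment, a 1.38-fold and then a 3.46-fold step. The erastin and co-treated libraries of ranks 2 and 27 were more than 3-fold apart at their nearest. Rank 59 rose 1.72-fold and 3.34-fold from a control mean of 2.33 ± 0.535 CPM (SD, n = 3), and rank 16 rose 1.39-fold and 2.28-fold from 55.9 ± 7.38 CPM. The other 2 were ranks 40 and 68, with second steps of 1.85-fold and 2.09-fold. Ranks 27, 40 and 68 did not meet the rule under every other scaling, pseudocount and left-out library.

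In the 10 with the larger step at erastin, the median first step was 1.72 and the median second step 0.60 on the log2 scale. Beside ranks 7, 9 and 12 these were ranks 3, 5, 21, 26, 34, 48 and 61. Rank 3 held 91.3, 90.7 and 109 CPM in controls, 342, 367 and 341 CPM with erastin and 554, 529 and 519 CPM under co-treatment, a 3.61-fold step and a 1.53-fold step with narrow groups throughout. Rank 5 held 65.3, 55.1 and 79.4 CPM, then 316, 216 and 231 CPM, then 487, 452 and 433 CPM. Its erastin libraries spread by 21.0% of their mean, and the lowest co-treated library exceeded the highest of them 1.37-fold. Rank 61 was the most variable of the 10, with 1.31, 4.45 and 2.72 CPM in controls, 9.31, 9.69 and 5.09 CPM with erastin and 11.8, 15.0 and 9.99 CPM under co-treatment.

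Among the 59 with more even steps, rank 1 had the highest CPM, at 445, 393 and 441 in controls, 686, 719 and 696 with erastin and 1210, 1238 and 1070 under co-treatment. Its steps were 1.64-fold and 1.67-fold. Rank 4 (208 ± 8.96, 353 ± 10.1 and 519 ± 13.2 CPM, SD, n = 3) and rank 8 (131 ± 22.8, 215 ± 2.55 and 430 ± 8.64 CPM) followed the same course. For rank 8 the SD of the 3 erastin libraries was 1.18% of their mean. At least 2-fold at each step were 10 transcripts, ranks 9, 10, 11, 17, 32, 36, 44, 49, 70 and 73. Rank 36 held 6.34, 8.18 and 4.71 CPM in controls, 13.7, 15.1 and 13.7 CPM with erastin and 50.7, 49.7 and 46.7 CPM under co-treatment. Rank 10 held 51.4, 56.5 and 54.5 CPM, then 129, 177 and 205 CPM, then 316, 367 and 365 CPM. Rank 44 rose 2.37-fold and 2.28-fold, from 5.73 ± 0.488 to 13.6 ± 0.356 and 30.9 ± 1.74 CPM (SD, n = 3), with groups that were narrow beside the distance between them.

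**Figure D4:**
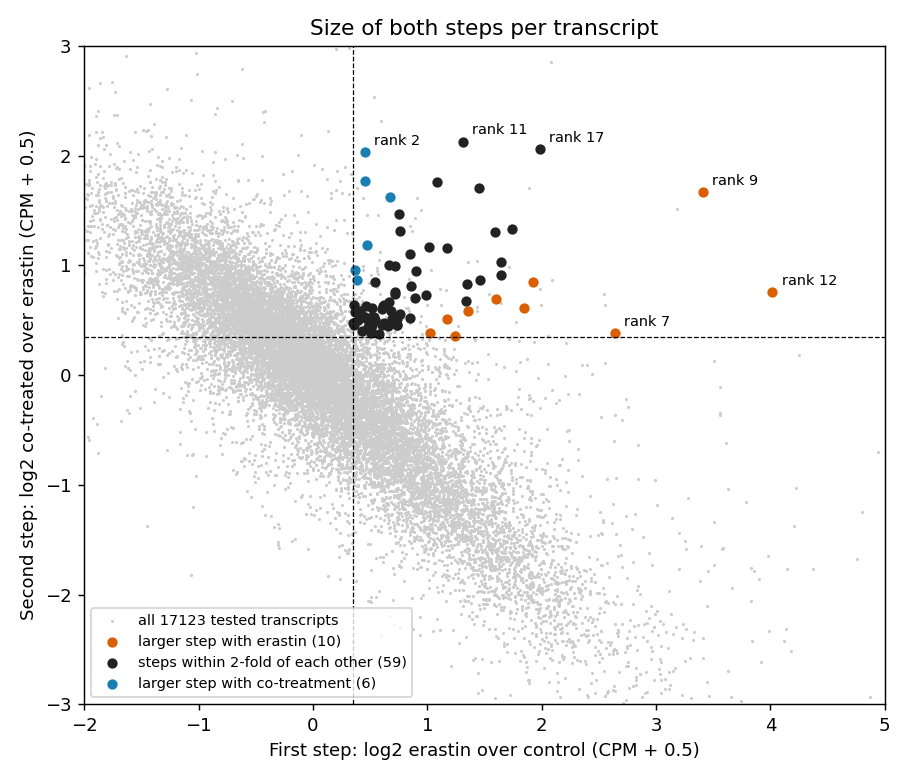
Second step (log2 of mean CPM + 0.5, co-treated over erastin) against first step (erastin over control), 1 point per transcript, with the 75 in colour by the balance of their steps, all 17123 tested transcripts in grey (415 lie outside the drawn range) and dashed lines at 0.35. Most of the 75 sit close to the corner of both lines (medians 0.71 and 0.64), rank 9 and rank 12 lie far to the right, ranks 2, 11 and 17 reach a second step above 2, and grey points in the same quadrant failed another condition.

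The size of the difference between co-treatment and control followed no single order with the control level. Its median was 1.30 on the log2 scale for the 18 with a control mean under 5 CPM, 1.63 for the 30 from 5 to 20 CPM, 1.20 for the 17 from 20 to 60 CPM and 1.58 for the 10 at 60 CPM or more. In plain folds of mean CPM, a 4-fold difference was reached by 6, 12, 4 and 4 transcripts of these classes. The 0.5 CPM added on the log2 scale lowers the differences most at low control levels. The classes and the difference use the same control libraries, and the classes were set after the values were seen.

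Spread between replicates was moderate, and the choice favours transcripts with little of it. The median coefficient of variation over 3 libraries for the 75 was 10.6% among control, 9.70% among erastin and 5.95% among co-treated libraries. For the 11803 tested transcripts within the same range of co-treated CPM it was 10.9%, 11.02% and 8.44%. It was 20% or more for 13 transcripts among control libraries, 13 among erastin libraries and 6 among co-treated libraries. Rank 43 was the widest under co-treatment, with 40.7, 22.7 and 31.3 CPM, and its lowest co-treated library was just above its highest erastin library (22.7 against 21.9 CPM). The nearest libraries of neighbouring groups lay less than 1.1-fold apart for 7 transcripts at the first step and 12 at the second, and at least 2-fold apart at both steps for 6. Rank 46 had the narrowest separation at the first step, 18.1 CPM in both the highest control and the lowest erastin library (a ratio of 1.00).

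The replicates of a group also differed in common. In the first erastin library 48 of the 75 were above their group mean on the log2 scale, in the second 37 and in the third 25, against 53.5%, 51.3% and 44.3% of all tested transcripts. The median deviation of the 75 in these libraries was 0.05, -0.01 and -0.05. In the control libraries the numbers were 42, 36 and 32, against 50.3%, 46.7% and 51.0% of all tested transcripts, so that the third library was lowest for the 75 and highest for all tested. In the co-treated libraries they were 47, 34 and 32, against 53.2%, 48.96% and 47.5%. The first library of each group had most of the 75 above the mean, by deviations that were small beside both median steps. The part of these deviations in the steps was not tested.

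edgeR's quasi-likelihood test was fitted to all tested transcripts, and its calls (adjusted p under 0.05, higher) are set here beside the background, as a description, because the set was chosen on the same contrasts. Between erastin and control 71 of the 75 were called higher, where 26.6% of all tested transcripts were. Between co-treatment and erastin 60 were called higher (background 25.3%), and between co-treatment and control all 75 (background 7.70%). At both steps 58 were called, where 0.456% of all tested transcripts were.

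The 4 without a call at the first step were ranks 62, 66, 68 and 75, with first steps of 1.36-, 1.32-, 1.35- and 1.55-fold. Rank 62 held 6.02, 5.65 and 5.29 CPM in controls and 6.59, 10.4 and 6.10 CPM with erastin, so that 1 erastin library carried most of the difference. The 15 without a call at the second step had a median second step of 0.51 on the log2 scale and a median ratio of 1.06 between the nearest erastin and co-treated libraries. The 60 with a call had 0.74 and 1.45. The largest second step without a call was that of rank 73, 3.03-fold at 40 to 191 counts.

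The rule and the test picked overlapping sets. Called higher at both steps were 78 of all tested transcripts, 58 of which are in the set: 74.4% of the 78 and 77.3% of the 75. Of the 20 others, 16 had a step under 0.35, 3 a co-treated mean under 3 CPM and 1 overlapping groups. Control below erastin below co-treatment with no overlap held for 208 tested transcripts (1.21%) and for 214 in the whole table. Of the 214, 82 had a first step and 95 a second step under 0.35, and 26 had a co-treated mean under 3 CPM. Without the condition on overlap 146 transcripts met the rule. In 71 of these groups overlapped, at the first step in 56 and at the second in 58.

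The limits cut through a continuous range. Just inside the limit of 0.35 at the first step lay rank 56 with 0.35 and rank 66 with 0.36, and just outside 2 transcripts with 0.33. At the second step rank 48 with 0.357 and rank 42 with 0.372 lay inside, and transcripts with 0.346 and 0.342 outside. The lowest co-treated means inside were 3.60 and 3.81 CPM (ranks 75 and 74), and the highest outside was 2.79 CPM.

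The mirror of the rule, with control above erastin above co-treatment, the same steps downward and a control mean of at least 3 CPM, was met by 16 transcripts. Their median steps were -0.54 and -0.67, and their median difference between co-treatment and control was -1.26, against 1.40 for the 75. The difference between 75 and 16 was not tested.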

How the data were processed

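The authors deposited 1 table of raw counts, 1 row per Ensembl transcript and 1 column per library, per the file headers, with no normalization. Whether these whole numbers are counted reads or were derived from coverage is not stated there. HISAT2 2.2.1 and build Rnor 6.0 are named in the submitters' processing notes; counter, annotation release and strand use were not given in the sources used here. Poly(A) RNA was copied with random hexamers, amplified and sequenced in paired ends, per the labels' protocols, with no molecular identifiers named.

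Columns were assigned to libraries by the name in each title. CPM was computed on total counts, the rule was applied with a pseudocount of 0.5 CPM, and SDs are over 3 libraries. edgeR 4.0.16 (R 4.3.3, limma 3.58.1) was fitted to the 17123 transcripts past its filter on low counts, in all 9 libraries, with TMM scaling and Benjamini-Hochberg adjustment; DESeq2 1.42.0 was an alternative. Nothing in the labels tells whether replicate libraries stem from separate cultures; calls thus rest on the spread between these samples alone, which may be technical.

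The transcripts, classes and limits were chosen with earlier results of these data known. At most 2 IDs are printed: those with the largest difference between co-treatment and control among transcripts with at least 10 counts in each control library. The 9 gene lists prepared (162 entries) could not be paired with the IDs (0 matched) and were not used.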

Additional observations from a re-analysis of the deposited data

How the results depend on the processing

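The number of transcripts that met the rule was 46 with steps of at least 0.5, 10 with steps of at least 1 and 146 with no condition on overlap. With TMM-adjusted library sizes it was 68, all of them among the 75, and with DESeq2 size factors 70; ranks 7, 21, 25, 28, 42, 43 and 48 were lost with TMM. Leaving out 1 library gave 75 to 89, of which 68 to 75 were among the 75. Under both other scalings, both other pseudocounts and each left-out library 58 of the 75 met the rule every time. Lost at least once were ranks 7, 14, 21, 25, 27, 28, 38, 40, 42, 43, 46, 48, 54, 56, 62, 66 and 68. The median second step of the 75, 0.64, was 0.57 with TMM and 0.59 to 0.69 with 1 library left out. The factors by which TMM multiplied the library totals were 1.06, 1.02 and 1.01 for the co-treated libraries. For the erastin libraries they were 0.997, 0.983 and 0.966. The cause of these changes in the median was not tested. The medians of the first step and of the difference between co-treatment and control moved by less than 1 SD between replicates.

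The numbers of the 75 called in the 3 comparisons stayed within 1.5 times their values under all alternatives run: 55 to 71 at the first step, 43 to 68 at the second and 70 to 75 between co-treatment and control, with the lowest at an adjusted p of 0.01. With the replicate number as a block they were 70, 60 and 75. In the main fit 26.6%, 25.3% and 7.70% of all tested transcripts were called higher in these comparisons. Their shares under the alternatives are not given here, so these numbers describe the set without a matching background. Deviations of same-numbered libraries correlated by -0.00333 to 0.136 across transcripts, with the highest values for the first control with the first erastin library (0.136) and the first erastin with the first co-treated library (0.110). With not every pair over 0.1 and no shared batch named in the labels, the numbers were not taken as pairs. Libraries with different numbers were not compared in this way, so these values cannot decide whether the numbers mark pairs. An effect common to the first libraries was not tested further. Depth limits ranks 70 and 73, with 0 to 12 control counts.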
